A study of Mus musculus with 12 samples.

Results

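The NRF2 pathway of mouse C2C12 cells was followed through 10 genes: the transcription factor gene Nfe2l2, its inhibitor gene Keap1, and the antioxidant and detoxification genes Nqo1, Hmox1, Gclc, Gclm, Txnrd1, Srxn1, Osgin1 and G6pdx. The 10 were taken by gene symbol from 16288 genes listed in at least 1 library, and they were selected because targets of NRF2 were higher with the compound PFI-3 in these same libraries. Their PFI-3 values, and the number of them past the threshold used for all genes, are therefore given as a description without a p-value. The course of vehicle-treated cells was not itself the ground of the selection and was tested. Those vehicle libraries also serve as the controls of the PFI-3 values, so that test is not fully independent of the selection. All 10 genes were listed in all 12 libraries and passed the low-count filter, as did 12545 genes in all.

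C2C12 is an immortalized mouse myoblast line that forms myotubes when serum is withdrawn. The agents compared were the vehicle DMSO and 50 uM PFI-3, a ligand of the bromodomains of the SWI/SNF ATPases BRM and BRG1. The 6 groups were proliferating cells in growth medium (GM) with DMSO or PFI-3, cells 24 h into differentiation (DM 24h) with DMSO or PFI-3, and cells 48 h into differentiation (DM 48h) with DMSO or PFI-3. Each group had 2 libraries, A and B, described in the labels as biological duplicates, all from 1 cell line with no genetic change. GM cells met the agent 12 h before harvest. DM cells met it 12 h before induction, in a medium with low horse serum and insulin, and it was renewed every 24 h, so the stage and the length of exposure to PFI-3 cannot be told apart.

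NRF2, the product of Nfe2l2, is a leucine-zipper transcription factor. In unstressed cells KEAP1 holds it for ubiquitination by a CUL3 ligase and for destruction by the proteasome. Oxidants and electrophiles modify cysteines of KEAP1, NRF2 then builds up, pairs with a small MAF protein and binds antioxidant response elements near genes for quinone reduction, glutathione synthesis, thioredoxin reduction, haem breakdown and NADPH supply. Much of this control acts on the stability of the NRF2 protein, which RNA sequencing does not measure. In muscle the pathway is known for handling the oxidants that respiration and contraction produce.

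The libraries held between 12576374 and 13658352 expected counts, and 13499 to 14231 genes were listed in each. Replicates agreed less closely in GM, where log2 B over A had an SD across genes of 0.333 with DMSO and 0.301 with PFI-3, than at the later stages, where it lay between 0.138 and 0.151. The SE and p-values below rest on 1 spread per gene shared by all stages, so those in GM may be too small. All 5 myoblast and all 6 differentiating-muscle markers were detected. Of 23 markers of other cell types, 8 (Adipoq, Plin1, Pecam1, Ptprc, Adgre1, Acan, Epcam and Krt18) were at 2 counts or fewer in every library and 15 were above that in at least 1. Sox9 had 783 to 1292 counts per library, Pparg 37 to 321, Cebpa 43 to 279 and Cd68 11 to 127, and none of the other 11 passed 26 counts in any library. The 6 differentiating-muscle markers summed to between 5.83 and 11.5 CPM (counts scaled to a common library size) in GM with DMSO, 2363 to 2372 CPM at 24 h with DMSO and 16373 to 16415 CPM at 48 h with DMSO. In RNA from bulk cultures, fewer cells of a type and less RNA per cell cannot be told apart.

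Promoter sequence of the targets was searched for the element that NRF2 binds, and the windows below show where those letters lie. RefSeq promoters of the GRCm38.p6 assembly, which reach from 250 bases before to 50 bases after a transcription start, were at hand for 8 of the 10 genes, not for Hmox1 and Gclc. The core of the antioxidant response element was searched on both strands as TGACNNNGC, with C after TGA, so forms with G there were not counted. It was found in promoters of 5 of the 8 genes, compared with 14.0% of 27025 genes and 12.4% of 32851 promoters in the table. The second motif, TGANTCA, is the AP-1 site, which resembles the longer element. It was found in 2 of the 8 genes and in 9.0% of all genes, or 7.8% of all promoters. Matches of the 2 motifs did not overlap in these genes. A match is a run of letters and not a measured binding site.

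The windows around the core matches of Nfe2l2, Gclm, Txnrd1 and G6pdx follow, read 5′ to 3′ on the strand of the gene, with the match in capitals. On the gene's strand the match of Nfe2l2 reads forward, and the others read as the reverse complement, GCNNNGTCA.
Nfe2l2, chr2:75704875-75704913, match from position -240: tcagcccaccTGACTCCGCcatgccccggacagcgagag
Gclm, chr3:122245403-122245451, match from position -134: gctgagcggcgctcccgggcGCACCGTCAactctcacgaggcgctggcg
Txnrd1, second of 3 promoters, chr10:82859094-82859142, match from position -92: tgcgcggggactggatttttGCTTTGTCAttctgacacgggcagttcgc
G6pdx, chrX:74428909-74428957, match from position -57: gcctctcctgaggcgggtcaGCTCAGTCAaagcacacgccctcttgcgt

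Srxn1 had 2 AP-1 matches, at -102 and -45, with a core match from position 29 after the start, and Osgin1 had 1 AP-1 match, at -97. Their AP-1 matches are in capitals below. The Srxn1 match at -45 runs on as TGAGTCAGC, and so does that of Osgin1 on the other strand. With G after TGA, these runs fall outside the core as searched, so its absence there is not absence of a related form.
Srxn1, chr2:152105402-152105505: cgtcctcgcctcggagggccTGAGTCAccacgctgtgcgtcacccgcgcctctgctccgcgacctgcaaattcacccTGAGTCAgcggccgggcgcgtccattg
Osgin1, chr8:119437030-119437076: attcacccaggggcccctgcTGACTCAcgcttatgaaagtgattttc
The single promoters of Keap1 and Nqo1 held neither motif in these windows.

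**Figure D1:**
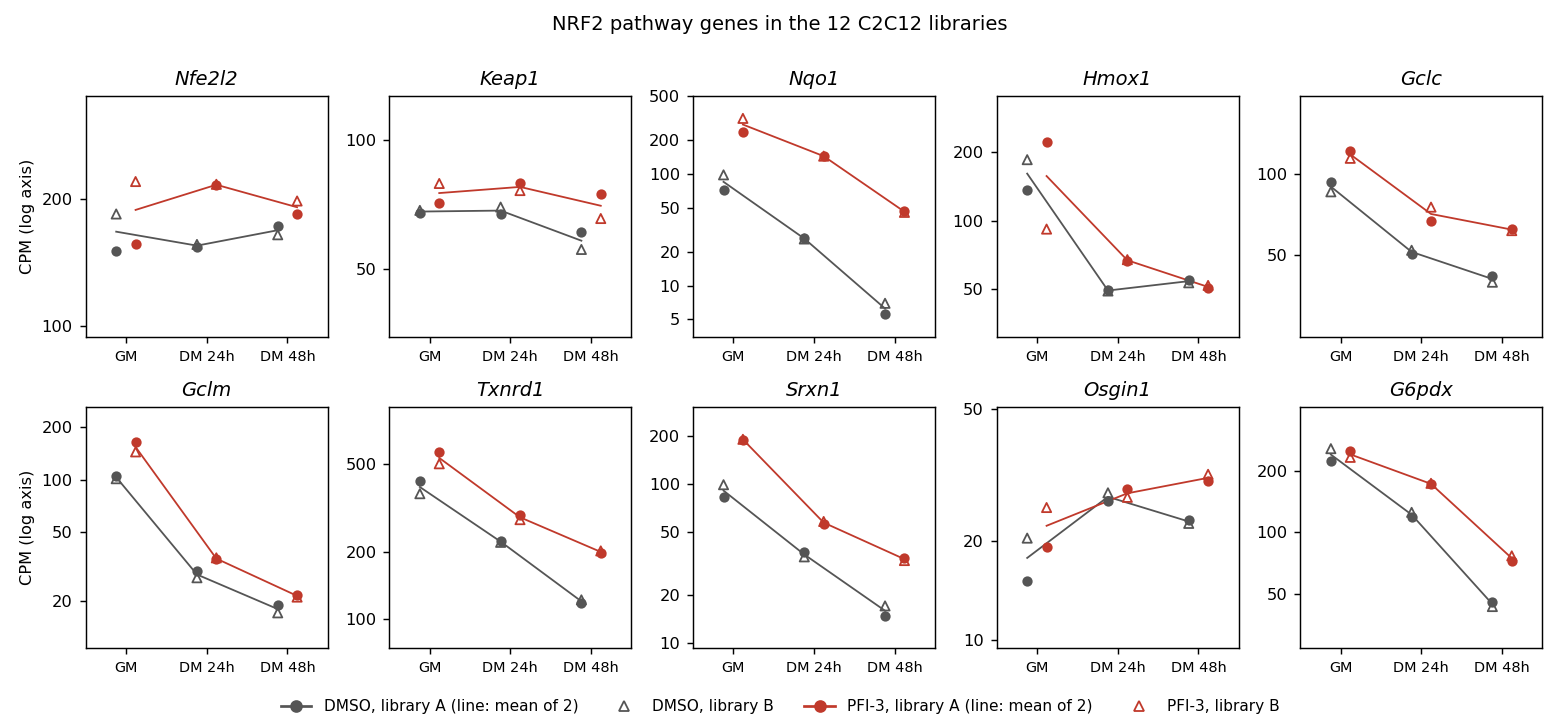
CPM of the 10 genes on a log axis in all 12 libraries, by stage, with circles for library A, triangles for library B, and lines through the means of 2. Of the vehicle lines 7 fall from GM to DM 24h, those of Nfe2l2 and Keap1 stay near level, and that of Osgin1 rises.

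The regulators themselves moved little along the vehicle course. Nfe2l2 (NCBI Gene 18024, chr2:75675513-75704663) was at 150.4 and 184 CPM in GM with DMSO, 154 and 156 CPM at 24 h and 173 and 165 CPM at 48 h. The GM libraries enclosed both later groups. Its log2 fold changes from GM were -0.11 at 24 h (SE 0.13, adjusted p 0.486, edgeR) and 0.01 at 48 h (SE 0.13, adjusted p 0.943), and neither passed the test. Between 24 h and 48 h its change of 0.12 (SE 0.13, adjusted p 0.48) was not called either, although it was in the fits without GM libraries, with adjusted p from 0.0195 to 0.0395.

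Keap1 (50868, chr9:21229730-21239332), which encodes the adaptor that delivers NRF2 to the ligase, was at 67.7 and 68.6 CPM in GM with DMSO and at 67.2 and 69.8 CPM at 24 h. Those 2 groups overlapped, and the change of 0.01 (SE 0.09, adjusted p 0.945) was not called. At 48 h Keap1 was at 61.0 and 55.6 CPM, below all 4 earlier DMSO libraries. It fell by 0.23 on the log2 scale from GM (SE 0.09, adjusted p 0.0316) and by 0.23 from 24 h (SE 0.09, adjusted p 0.0409). The first call was kept in 15 of 21 alternative fits, with adjusted p from 0.0206 to 0.21, and was lost without either GM library or the second 48 h library (B) of the DMSO groups. The second was kept in 13 of 22, from 0.00173 to 0.269, and was lost without any 1 of the 4 libraries of 24 h and without either 48 h DMSO library.

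With PFI-3, Nfe2l2 was at 157 and 220.2 CPM in GM, which overlapped the vehicle libraries. At 24 h it was at 216 and 217 CPM, above both vehicle libraries, and at 48 h at 185 and 198 CPM, again above both. The log2 fold changes of PFI-3 over DMSO were 0.17, 0.48 and 0.18 in GM, at 24 h and at 48 h with an SE of 0.13 each. In GM the value was -0.09 without library B of the PFI-3 group and 0.40 without library A. Keap1 was at 71.3 and 79.2 CPM in GM with PFI-3, 79.3 and 76.3 CPM at 24 h and 75.0 and 65.7 CPM at 48 h. The PFI-3 libraries of Keap1 lay above the DMSO libraries at each stage, by 0.14 (SE 0.08), 0.18 (SE 0.08) and 0.27 (SE 0.09) on the log2 scale.

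Nqo1 (18104, chr8:107388225-107403205), which encodes a quinone reductase that is the standard reporter of NRF2 activity, had the widest fold range of the 10 genes over the 6 groups. In vehicle cells it was at 71.9 and 98.1 CPM in GM, 26.6 and 26.2 CPM at 24 h and 5.53 and 6.95 CPM at 48 h. The 3 groups did not overlap. The fall from GM was 3.22-fold at 24 h (log2 fold change -1.69, SE 0.16, adjusted p 2.14e-06) and 13.6-fold at 48 h (-3.77, SE 0.19, adjusted p 3.45e-09). From 24 h to 48 h it fell a further 4.22-fold (-2.08, SE 0.21, adjusted p 5.28e-06).

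With PFI-3, Nqo1 was at 239 and 314 CPM in GM, 144 and 144 CPM at 24 h and 46.5 and 45.3 CPM at 48 h. Both PFI-3 libraries were above both DMSO libraries at every stage, and the 24 h PFI-3 libraries were also above the GM vehicle libraries. The level was 3.25-fold, 5.47-fold and 7.35-fold that of DMSO, or 1.70 (SE 0.14), 2.45 (SE 0.16) and 2.88 (SE 0.20) on the log2 scale. The log2 difference at 48 h exceeded that in GM by 1.17 (SE 0.25), which is given without a test because the gene was selected on PFI-3 values. Nqo1 also fell along the course with PFI-3, to 54.0% of the GM vehicle level at 48 h, where vehicle cells had 7.3%.

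Gclc and Gclm encode the catalytic and modifier subunits of glutamate-cysteine ligase, the rate-limiting enzyme of glutathione synthesis. In vehicle cells Gclc (14629, chr9:77754535-77794489) was at 93.5 and 85.7 CPM in GM, 50.6 and 52.0 CPM at 24 h and 41.8 and 39.6 CPM at 48 h. Gclm (14630, chr3:122245487-122267215) was at 105 and 101 CPM, then 29.7 and 27.3 CPM, then 18.9 and 17.2 CPM. No library of a later group reached an earlier one for either gene. Gclc fell by 0.80 at 24 h (SE 0.08, adjusted p 3.96e-06) and by 1.14 at 48 h (SE 0.08, adjusted p 8.54e-08) on the log2 scale. Gclm fell further, by 1.85 (SE 0.09, adjusted p 4.48e-09) and 2.51 (SE 0.09, adjusted p 1.69e-10). From 24 h to 48 h the changes were -0.33 for Gclc (SE 0.08, adjusted p 0.00597) and -0.66 for Gclm (SE 0.10, adjusted p 0.000132). That of Gclc had an adjusted p of 0.0623 without library B of the 48 h DMSO group and was called in the other 21 fits.

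PFI-3 libraries held more RNA of both subunits, in different measure along the course. Gclc was at 122 and 114 CPM in GM, 66.7 and 75.2 CPM at 24 h and 62.6 and 61.5 CPM at 48 h. Those values were above both vehicle libraries of the same stage, with log2 fold changes of 0.40 (SE 0.08), 0.47 (SE 0.08) and 0.61 (SE 0.08). Gclm was at 164 and 144 CPM in GM, 34.9 and 35.5 CPM at 24 h and 21.9 and 21.2 CPM at 48 h, also above the vehicle libraries throughout. Its log2 fold changes were 0.58 (SE 0.08), 0.30 (SE 0.09) and 0.25 (SE 0.10), so the value of Gclc was higher at 48 h than in GM and that of Gclm was lower. At 48 h with PFI-3, Gclc stood at 69.2% and Gclm at 20.8% of the GM vehicle level.

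Txnrd1 encodes the cytosolic thioredoxin reductase, a selenoprotein that keeps thioredoxin reduced at the cost of NADPH, and Srxn1 encodes sulfiredoxin, which repairs over-oxidised peroxiredoxins. In vehicle cells Txnrd1 (50493, chr10:82833951-82897724) was at 419 and 366 CPM in GM, 225 and 222 CPM at 24 h and 119 and 122 CPM at 48 h. Srxn1 (76650, chr2:152105524-152111376) was at 82.5 and 98.6 CPM, then 37.2 and 34.8 CPM, then 14.8 and 17.1 CPM. Neither gene had overlapping groups. Txnrd1 fell 1.76-fold at 24 h (log2 fold change -0.81, SE 0.08, adjusted p 2.84e-06) and 3.25-fold at 48 h (-1.70, SE 0.08, adjusted p 1.89e-09). Srxn1 fell 2.52-fold (-1.33, SE 0.09, adjusted p 2.01e-07) and 5.68-fold (-2.51, SE 0.10, adjusted p 5.3e-10). Both also fell between 24 h and 48 h, Txnrd1 by 0.89 (SE 0.08, adjusted p 2.21e-06) and Srxn1 by 1.17 (SE 0.11, adjusted p 2.62e-06) on the log2 scale.

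With PFI-3, Txnrd1 was at 561 and 498 CPM in GM, 294 and 280.1 CPM at 24 h and 199 and 203 CPM at 48 h. Srxn1 was at 189 and 190.2 CPM, then 56.1 and 58.0 CPM, then 34.3 and 32.95 CPM. For both genes every PFI-3 library exceeded both DMSO libraries of its stage. The log2 fold changes of Txnrd1 were 0.43 (SE 0.08), 0.36 (SE 0.08) and 0.74 (SE 0.08) in stage order. Srxn1 was 2.09-fold, 1.59-fold and 2.11-fold as high as with DMSO (1.07, SE 0.09, 0.67, SE 0.10, and 1.08, SE 0.11), next to Nqo1 in size. Its GM level with PFI-3 was 209.5% of the vehicle level.

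Hmox1 (15368, chr8:75093618-75100593), whose product haem oxygenase-1 opens the haem ring, was the least even member. In vehicle cells it was at 137 and 186 CPM in GM, 49.3 and 48.8 CPM at 24 h and 54.9 and 53.1 CPM at 48 h. Both later groups lay below GM. It fell by 1.72 at 24 h (SE 0.30, adjusted p 3.44e-04) and by 1.58 at 48 h (SE 0.30, adjusted p 4.03e-04) on the log2 scale. From 24 h to 48 h the change of 0.14 (SE 0.31, adjusted p 0.744) was not called, in contrast to the continued fall of the targets above.

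The PFI-3 libraries of Hmox1 did not agree in GM, at 223 CPM in A and 91.7 CPM in B, 1 above and 1 below both vehicle libraries. The GM log2 fold change was -0.04 (SE 0.28), and it was 0.47 without library B and -0.81 without library A of that group. At 24 h Hmox1 was at 66.3 and 67.2 CPM, above the vehicle libraries (0.44, SE 0.30), and at 48 h at 50.1 and 51.7 CPM, below them (-0.08, SE 0.31). The standard errors of Hmox1 were the widest of the 10 genes at every stage.

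Osgin1 (71839, chr8:119425882-119446257), known as an oxidative-stress-induced growth inhibitor, ran against the other targets along the vehicle course. It was at 15.1 and 20.4 CPM in GM with DMSO, 26.4 and 27.9 CPM at 24 h and 23.2 and 22.6 CPM at 48 h. The GM libraries were below all 24 h and 48 h libraries. It rose by 0.61 at 24 h on the log2 scale (SE 0.15, adjusted p 0.00324), a call kept in all 21 alternative fits. At 48 h its rise of 0.36 (SE 0.15, adjusted p 0.0435) was kept in 7 of 21, with adjusted p from 0.00347 to 0.316. It was lost without library A of GM DMSO, which gave the highest value, and without any 1 of the 8 later libraries. The change of -0.25 from 24 h to 48 h (SE 0.14, adjusted p 0.177) was not called. With PFI-3 Osgin1 was at 19.2 and 25.2 CPM in GM and 28.6 and 27.1 CPM at 24 h, overlapping vehicle at both stages, and at 30.2 and 31.8 CPM at 48 h, above it. The log2 fold changes were 0.32 (SE 0.15), 0.04 (SE 0.14) and 0.44 (SE 0.14).

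G6pdx (14381, chrX:74409483-74428880) encodes glucose-6-phosphate dehydrogenase, the entry enzyme of the oxidative pentose phosphate pathway and a source of the NADPH that glutathione and thioredoxin reductases consume. In vehicle cells it was at 224 and 256 CPM in GM, 119 and 125 CPM at 24 h and 46.0 and 43.5 CPM at 48 h, without overlap. It fell 1.96-fold at 24 h (log2 fold change -0.97, SE 0.08, adjusted p 5.05e-07), 5.36-fold at 48 h (-2.42, SE 0.08, adjusted p 1.05e-10) and 2.73-fold between them (-1.45, SE 0.08, adjusted p 3.59e-08). With PFI-3 it was at 248 and 233 CPM in GM, within the vehicle range. At 24 h it was at 172 and 174 CPM and at 48 h at 72.9 and 76.9 CPM, both above vehicle. The log2 fold changes were 0.00 (SE 0.08), 0.50 (SE 0.08) and 0.74 (SE 0.08), the last exceeding the GM value by 0.74 (SE 0.11), again as a description.

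**Figure D2:**
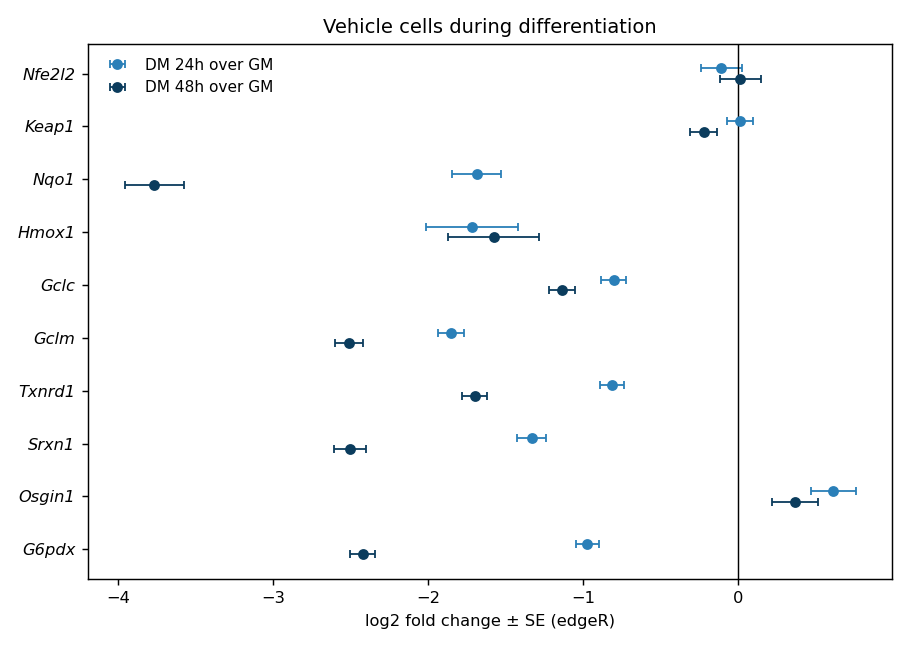
Log2 fold change of each gene in DMSO cells at DM 24h (light) and DM 48h (dark) over GM. Bars are 1 standard error derived from the F statistic of the edgeR fit over all 12 libraries, 2 per group. Nqo1, Gclm, Srxn1 and G6pdx reach -2.42 or below at DM 48h, while Nfe2l2 sits at 0.01 and Osgin1 is to the right of 0.

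Counted together, 7 of the 10 genes fell and 1, Osgin1, rose from GM to 24 h in vehicle cells, where 30.0% and 30.6% of all 12545 genes tested were called lower and higher. At 48 h, 8 fell and 1 rose, next to 35.9% and 37.2% of all genes. From 24 h to 48 h, 7 fell and 0 rose, next to 23.9% and 24.2%. An unadjusted p under 0.05 and the DESeq2 Wald test also gave 0 higher there, while fits without the GM libraries called 1, Nfe2l2. The median log2 fold changes of the 10 genes were -0.89, -1.64 and -0.50 in these 3 comparisons, and those of all genes were 0.02, 0.03 and 0.01. The DMSO libraries were also the controls in the selection of the 10 genes, so these counts and medians are not independent of it. The falls of Nqo1, Hmox1, Gclc, Gclm, Txnrd1, Srxn1 and G6pdx from GM were called in all 21 alternative fits at both times. The summed differentiating-muscle markers rose over the same libraries, as given above, and their part in these falls was not tested.

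**Figure D3:**
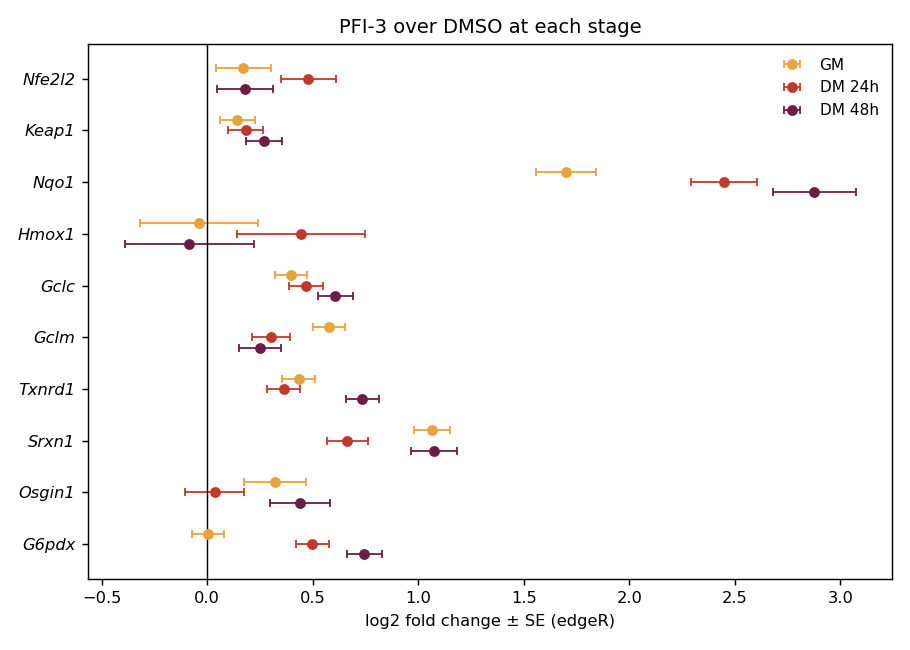
Log2 fold change of PFI-3 over DMSO for each gene at GM, DM 24h and DM 48h. Bars are 1 standard error derived from the F statistic of the edgeR fit over all 12 libraries, 2 per group. Nqo1 lies furthest to the right at each stage, from 1.70 to 2.88, Srxn1 follows, and the bars of Hmox1 are the widest.

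The selection rested on the difference between PFI-3 and DMSO, so the number of members past the threshold of the other comparisons was fixed by it in part and describes the choice. In GM 5 members passed on the higher side, namely Nqo1, Gclc, Gclm, Txnrd1 and Srxn1, where 5.46% of all genes were called higher and 6.15% lower. At 24 h the 7 that passed were Nfe2l2, Nqo1, Gclc, Gclm, Txnrd1, Srxn1 and G6pdx, where 12.2% of all genes were called higher and 11.4% lower. At 48 h the 7 were Keap1, Nqo1, Gclc, Txnrd1, Srxn1, Osgin1 and G6pdx, where the shares were 13.4% and 14.0%. On the average over the 3 stages 9 passed, all except Hmox1, where the shares were 18.6% and 16.5%. Nothing is read from these counts. The median log2 fold changes of the 10 genes were 0.36 in GM, 0.46 at 24 h and 0.52 at 48 h, while the medians of all genes were -0.01, 0.00 and 0.00.

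Library choice moved these counts, and those of all genes too. The fit of the 4 GM libraries alone called 16 of all 11656 genes it tested higher, against 685 of 12545 in the main fit. With only the 4 GM libraries in the fit, 2 members passed in GM, and without library A of the 24 h PFI-3 group or library B of the 24 h DMSO group, 4 passed at 24 h. Without library A of the GM PFI-3 group, 1 member, Hmox1, passed on the lower side in GM. Among all genes 47.0% of the calls in GM, 48.9% at 48 h and 53.0% on average were higher, and on the FPKM scale (limma, log2(FPKM + 1)) these shares were 75.3%, 65.3% and 70.7%.

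Muscle markers differed between the treatments in the same libraries. The 6 differentiating-muscle markers summed to between 973 and 981 CPM with PFI-3 at 24 h, against at least 2363 CPM with DMSO, and to between 10778 and 11008 CPM at 48 h, against at least 16373 CPM. The 5 myoblast markers summed to 555 to 685 CPM in GM with PFI-3 and to 972 to 998 CPM with DMSO. Des, Cdh15 and Chrna1 were lower there in both PFI-3 libraries, while Myod1 and Myf5 overlapped vehicle. With DMSO the same sum rose along the course, to between 4562 and 4671 CPM at 48 h. The part of the markers in the PFI-3 values was not tested. In GM the 6 differentiating-muscle markers summed to 8.80 to 10.2 CPM with PFI-3 and to 5.83 to 11.5 CPM with DMSO. At 24 h the adipocyte markers, mostly Pparg and Cebpa, summed to 23.1 to 25.5 CPM with PFI-3 and to 13.9 to 14.5 CPM with DMSO. In GM these sums were 27.9 to 29.8 and 21.1 to 27.3 CPM. At 48 h they overlapped, at 21.4 to 22.25 and 22.2 to 23.3 CPM. The bone and cartilage sum, mostly Sox9, was also higher with PFI-3 at 24 h (95.65 to 98.69 against 77.36 to 78.33 CPM). So was the macrophage or leukocyte sum (2.59 to 3.2 against 1.19 to 2.09 CPM). The endothelial and epithelial sums were lower there with PFI-3. The part of these markers was not tested either.

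Expressed against the GM vehicle level, the PFI-3 libraries kept different genes at different heights. At 24 h with PFI-3, Nqo1 was at 169.8%, Txnrd1 at 73.2%, G6pdx at 72.0%, Srxn1 at 62.9% and Gclm at 34.1% of that level. The vehicle values at the same time were 31.1%, 56.9%, 50.9%, 39.7% and 27.6%. At 48 h with PFI-3, Txnrd1 was at 51.2%, Srxn1 at 37.1% and G6pdx at 31.2%, where vehicle cells had 30.7%, 17.6% and 18.6%. Apart from Nqo1 at 24 h, these targets were below the GM vehicle level at both later times with PFI-3 too.

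Levels were compared between genes by FPKM, which corrects for transcript length. In GM with DMSO the order was Txnrd1 (112.9 ± 6.33 FPKM, SD, n = 2), Hmox1 (100.2 ± 25.4), G6pdx (90.4 ± 12.3), Nfe2l2 (66.8 ± 12.2), Nqo1 (55.8 ± 14.3), Gclm (49.8 ± 0.55), Srxn1 (31.8 ± 5.23), Gclc (25.6 ± 0.57), Keap1 (19.1 ± 0.46) and Osgin1 (9.02 ± 2.23). Neighbours whose libraries overlapped were Txnrd1 with Hmox1, Hmox1 with G6pdx, Nfe2l2 with Nqo1, and Nqo1 with Gclm. At 48 h with DMSO, Nfe2l2 led (66.7 ± 2.40), ahead of Txnrd1 (34.5 ± 0.71) and Hmox1 (33.2 ± 0.86), and Nqo1 was last (4.04 ± 0.64). With PFI-3, Nqo1 was first in GM (193.6 ± 36.1, overlapping Txnrd1 at 164 ± 14.2), first at 24 h (101.2 ± 0.10) and 4th at 48 h (31.6 ± 0.58). Nfe2l2 kept a mean between 64.0 and 92.3 FPKM in all 6 groups.

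Genes around the pathway were read from 8 lists with 96 further genes, of which 92 were tested. These lists were chosen with earlier results of these data known, so their shares and adjusted p, here and below, are not independent of that choice. One list holds the aryl hydrocarbon receptor, a separate receptor, and its targets, and its 4, 4 and 3 rises in stage order are counted here. With PFI-3, 23 rose and 7 fell in GM (25.0% and 7.6% of the 92, next to 5.46% and 6.15% of all genes). At 24 h, 28 rose and 10 fell (30.4% and 10.9%, next to 12.2% and 11.4%), and at 48 h, 27 rose and 18 fell (29.3% and 19.6%, next to 13.4% and 14.0%). In GM and at 24 h the shares that fell were thus near those of all genes. Their median log2 fold changes were 0.09, 0.14 and -0.03. These counts moved with the libraries used. In GM the fit of the 4 GM libraries alone called 2 higher, Blvrb and Gsta4, and 0 lower. It called 16 higher and 16 lower of all 11656 genes it tested, against 685 and 771 of 12545 in the main fit. Among the GM calls it did not keep were Pgd (adjusted p 0.0611), Tiparp (0.0594), Cat (0.0875), Slc48a1 (0.173), Prdx5 (0.182) and Cyp1a1 (0.269). The main fit shares 1 spread over all stages, and GM replicates spread wider, so its adjusted p in GM may be too small. At 48 h, all genes lower went from 1756 to 2910 with the 4 libraries of that stage alone, 3003 without any GM library and 1148 or 1356 by limma on FPKM. List genes lower numbered 30, 31 and 10 or 11 in the same fits. Leaving out 1 library of 24 h gave 18 higher there, for library A or B of DMSO or library A of PFI-3, and 2 to 5 lower for any of the 4. Leaving out library A of DMSO or library B of PFI-3 at 48 h gave 16 higher there, and any of the 4 gave 8 to 11 lower. The number lower in GM was 4 without any 1 of the 8 later libraries. Of the 64 calls of list genes that the naming rule picked, 27 were kept in every alternative, and at least 1 alternative lost each of the other 37. Those kept include Maff, Mafk, Palb2, Me1, H6pd, Sesn2 and Slc40a1 at 48 h, Slc7a11, Fth1 and Cyp1b1 at 24 h, Ftl1, Pgd, Aldh3a1 and Ahr at both later times, Blvrb in GM, and Gsta4 at each stage.

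**Figure D4:**
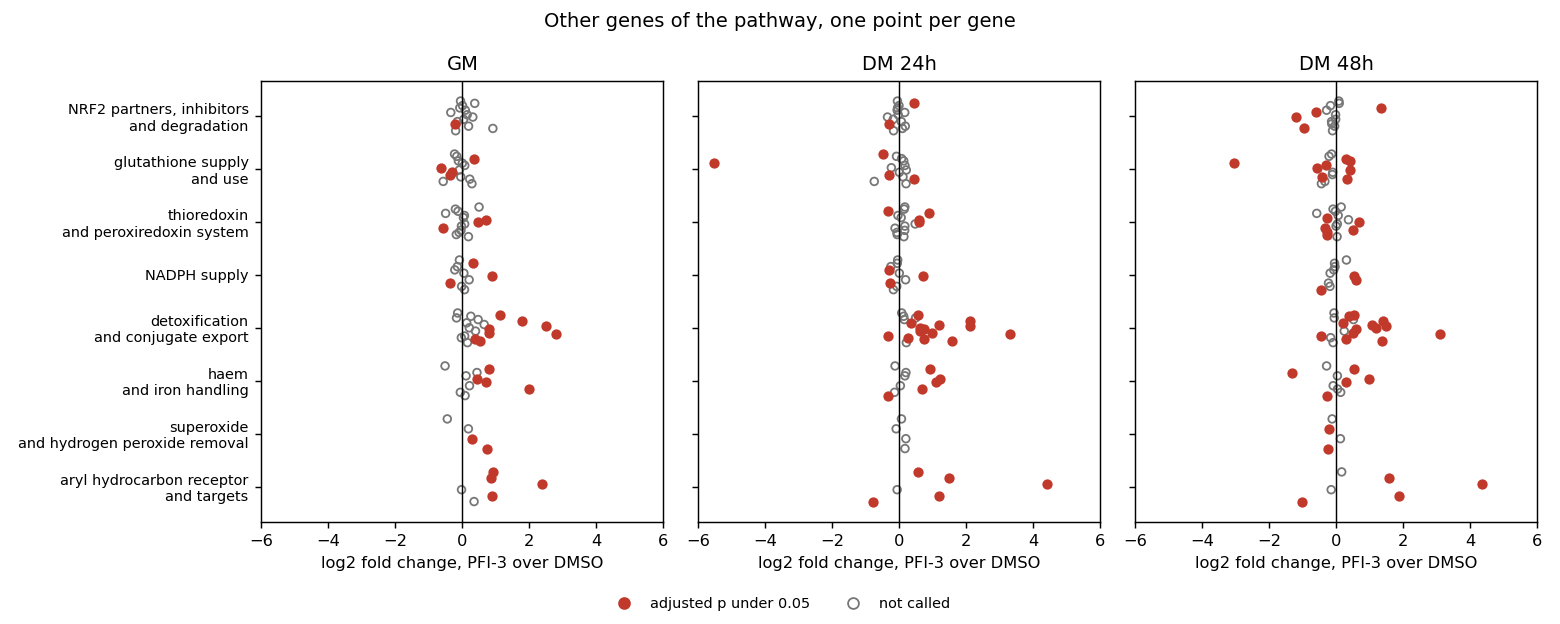
Log2 fold change of PFI-3 over DMSO for 92 genes of 8 lists at each stage, 1 point per gene, filled where the adjusted p was under 0.05. The filled points of the detoxification list lie mostly to the right, and the far-left points at the DM stages are Gpx7, named after its values were seen because it stands apart, whose PFI-3 libraries held 0 to 4 counts, so that its fitted fold depends on the prior count.

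Of 14 partners, inhibitors and degradation genes of NRF2, 0 rose and 1 fell in GM (0.0% and 7.1%, next to 5.46% and 6.15% of all genes). At 24 h, 1 rose and 1 fell (7.1% each, next to 12.2% and 11.4%), and at 48 h, 1 rose and 3 fell (7.1% and 21.4%, next to 13.4% and 14.0%). Counts this small do not set the list apart from all genes. At an unadjusted p under 0.05, 4 were higher in GM, and the DESeq2 Wald test called 1. Cul3, the scaffold of the ligase that KEAP1 joins, fell by 0.23 in GM (SE 0.07, adjusted p 0.0487) and by 0.31 at 24 h (SE 0.07, adjusted p 0.00659). Its GM call was lost in 7 alternatives other than the left-out libraries, among them the fit with the replicate block (adjusted p 0.0517). Sqstm1, whose product p62 competes for KEAP1, rose by 0.45 at 24 h (SE 0.11, adjusted p 0.0152). Maff and Mafk, small MAF partners of NRF2, fell by 1.21 (SE 0.14, adjusted p 4.53e-05) and 0.61 (SE 0.12, adjusted p 0.0025) at 48 h. Palb2, a KEAP1-binding protein better known for DNA repair, rose by 1.34 there (SE 0.25, adjusted p 0.00172).

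Of 19 detoxification and conjugate export genes tested, 8 rose and 0 fell in GM, with 0 lower also at an unadjusted p under 0.05 and by DESeq2. At 24 h, 13 rose and 1 fell, and at 48 h, 12 rose and 1 fell. The genes that rose were 42.1%, 68.4% and 63.2% of the list in stage order, where 5.46%, 12.2% and 13.4% of all genes were called higher. The median log2 fold changes of the list were 0.39, 0.62 and 0.51. Aldh3a1, an aldehyde dehydrogenase, was at 12.9 and 14.3 CPM with DMSO in GM and 47.4 and 140.3 CPM with PFI-3, and at 24 h at 16.6 to 18.4 against 171 to 176 CPM. It rose by 2.78 in GM (SE 0.38, adjusted p 9.52e-04), by 3.31 at 24 h (SE 0.37, adjusted p 6.97e-05) and by 3.11 at 48 h (SE 0.40, adjusted p 1.26e-04). Gsta4, a glutathione transferase for lipid aldehydes, rose by 2.49 in GM (SE 0.19, adjusted p 1.3e-05), by 2.12 at 24 h (SE 0.20, adjusted p 1.58e-05) and by 1.48 at 48 h (SE 0.21, adjusted p 3.08e-04). Akr1b8, an aldo-keto reductase, fell by 0.32 at 24 h (SE 0.08, adjusted p 0.0139) and by 0.46 at 48 h (SE 0.08, adjusted p 0.00127). A fit of the 4 GM libraries alone gave Aldh3a1 an adjusted p of 0.135 and kept the call of Gsta4.

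Beside Gclc and Gclm, 14 other glutathione genes were tested, of which 1 rose and 4 fell in GM, 1 rose and 3 fell at 24 h, and 4 rose and 4 fell at 48 h. The shares that rose were 7.1%, 7.1% and 28.6%, and those that fell 28.6%, 21.4% and 28.6%, next to the shares of all genes given for the 92. Slc7a11, the cystine carrier that feeds glutathione synthesis and is itself a known NRF2 target, fell by 0.48 at 24 h (SE 0.07, adjusted p 5.03e-04), from between 776 and 785 CPM to between 555 and 566 CPM. Gpx3 fell by 0.63 in GM (SE 0.11, adjusted p 0.00479, and 0.259 with the GM libraries alone) and by 0.58 at 48 h (SE 0.10, adjusted p 7.89e-04). Gsr, glutathione reductase, rose by 0.34 in GM (SE 0.07, adjusted p 0.0112) and by 0.29 at 48 h (SE 0.08, adjusted p 0.0176). Gpx1 rose by 0.419 at 48 h (SE 0.085, adjusted p 0.00313). Of 15 other thioredoxin and peroxiredoxin genes, 2 rose and 1 fell in GM, 4 rose and 1 fell at 24 h, and 2 rose and 4 fell at 48 h. In stage order these are 13.3%, 26.7% and 13.3% higher and 6.7%, 6.7% and 26.7% lower, so the share lower in GM and that higher at 48 h were near those of all genes. Sesn2, a stress-induced sestrin, rose by 0.47 in GM (SE 0.10, adjusted p 0.0147), by 0.58 at 24 h (SE 0.11, adjusted p 0.00271) and by 0.69 at 48 h (SE 0.12, adjusted p 9.25e-04). The peroxiredoxin Prdx5 fell by 0.58 in GM (SE 0.09, adjusted p 0.00206) and by 0.34 at 48 h (SE 0.09, adjusted p 0.016).

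Beside G6pdx, 10 genes of NADPH supply were read, of which 2 rose and 1 fell in GM, 1 rose and 2 fell at 24 h, and 2 rose and 1 fell at 48 h. With 10 genes, 1 call is 10.0% of the list, so these counts do not set it apart from all genes. Pgd, the next NADPH-forming enzyme of the same pathway, rose at each stage, by 0.89 in GM (SE 0.08, adjusted p 3.27e-05), by 0.71 at 24 h (SE 0.08, adjusted p 5.38e-05) and by 0.53 at 48 h (SE 0.08, adjusted p 3.36e-04). In GM, where Pgd stood at its highest value, that of G6pdx was 0.00. Me1, cytosolic malic enzyme, rose by 0.61 at 48 h (SE 0.08, adjusted p 9.94e-05). H6pd, the G6pdx relative of the endoplasmic reticulum, fell by 0.46 there (SE 0.08, adjusted p 9.95e-04).

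Beside Hmox1, 10 genes of haem and iron handling gave 4 rises and 0 falls in GM (1 fall at an unadjusted p under 0.05 and 1 by DESeq2), 4 and 1 at 24 h, and 3 and 2 at 48 h. The rises were 40.0%, 40.0% and 30.0% of the list, next to 5.46%, 12.2% and 13.4% of all genes. The ferritin genes, whose counts may include reads of their processed pseudogenes, were among them. Ftl1 rose by 1.22 at 24 h (SE 0.10, adjusted p 6.64e-06) and 0.97 at 48 h (SE 0.10, adjusted p 2.66e-05), and less in GM, by 0.45 (SE 0.10, adjusted p 0.0157). Fth1 rose by 1.09 at 24 h (SE 0.08, adjusted p 2.69e-06), by 0.69 in GM (SE 0.08, adjusted p 2.89e-04) and by 0.29 at 48 h (SE 0.08, adjusted p 0.0156). Blvrb, a biliverdin reductase that acts downstream of haem oxygenase, rose by 1.99 in GM (SE 0.15, adjusted p 1.3e-05) and by 0.68 at 24 h (SE 0.15, adjusted p 0.00605). The haem carrier Slc48a1 rose at each stage, by 0.79 in GM (SE 0.12, adjusted p 0.00144), 0.91 at 24 h (SE 0.12, adjusted p 2.53e-04) and 0.54 at 48 h (SE 0.12, adjusted p 0.00606). Slc40a1, the iron exporter ferroportin, fell by 1.31 at 48 h (SE 0.18, adjusted p 2.25e-04). Of 4 superoxide and peroxide genes, 2 rose in GM, 0 were called at 24 h (2 higher at an unadjusted p under 0.05, and 0 by DESeq2), and 2 fell at 48 h. With 4 genes these counts are not read as a result about the list. Catalase (Cat) rose by 0.73 in GM (SE 0.08, adjusted p 2.09e-04) and fell by 0.24 at 48 h (SE 0.08, adjusted p 0.0361), a call lost with the DESeq2 Wald test (0.0735).

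Nqo1 and Aldh3a1 are also known targets of the aryl hydrocarbon receptor, so its genes were read in the same libraries. Of 6 tested, 4 rose and 0 fell in GM (0 also at an unadjusted p under 0.05 and by DESeq2), 4 rose and 1 fell at 24 h, and 3 rose and 1 fell at 48 h. The rises were 66.7%, 66.7% and 50.0% of these few genes, next to 5.46%, 12.2% and 13.4% of all genes. Cyp1a1, the classic target, had 1 to 2 counts per DMSO library and 33 to 37 per PFI-3 library at both later times (adjusted p 0.0313 and 0.0291), and the calls were lost by limma on log2(FPKM + 1), at 0.119 and 0.106. In GM it was at 3.76 and 6.35 CPM with DMSO and between 10.1 and 41.8 CPM with PFI-3 (adjusted p 0.0122). Cyp1b1 rose by 0.86 in GM (SE 0.11, adjusted p 7.44e-04), by 1.49 at 24 h (SE 0.11, adjusted p 4.32e-06) and by 1.57 at 48 h (SE 0.11, adjusted p 2.13e-06). Ahrr rose by 0.88 in GM (SE 0.18, adjusted p 0.0108), by 1.20 at 24 h (SE 0.24, adjusted p 0.00418) and by 1.86 at 48 h (SE 0.29, adjusted p 4.87e-04). Tiparp rose by 0.92 in GM (SE 0.08, adjusted p 6.8e-05) and by 0.57 at 24 h (SE 0.09, adjusted p 8.22e-04). The receptor gene Ahr fell by 0.79 at 24 h (SE 0.13, adjusted p 0.00117) and 1.01 at 48 h (SE 0.13, adjusted p 1.07e-04). The part of this receptor in the Nqo1 values was not tested.

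The shared profile of the 8 targets was taken as the mean of their standardised log2 CPM over the 12 libraries. Srxn1 followed it most closely (Pearson r 0.991 over 12 libraries), then Txnrd1 (0.986), Gclc (0.973), Nqo1 (0.950), G6pdx (0.941), Gclm (0.921) and Hmox1 (0.784), each of which is part of the mean, while Osgin1 ran against it (-0.325). Nfe2l2, which is outside the mean, had 0.25 and Keap1 0.699. Among 10357 other genes the nearest were Ptpn22 (0.989), Steap2 (0.988), Pla2g4a (0.986), Itgb7 (0.986) and the ferritin gene Ftl1 (0.985). With the stage mean removed from every library, Nqo1 (0.972) and Gclc (0.964) came closest among the targets and Hmox1 was far off (0.231), and the nearest other genes were Kif21a (0.991), Adh7 (0.990), Rnaset2a (0.987), Trim2 (0.983) and Lgals3bp (0.980). These correlations are descriptions. The 12 points share stage and treatment groups, and the first profile is set mostly by stage. The second holds what is left within a stage, the difference between PFI-3 and DMSO and the spread of replicates. The members were selected on that difference, so their closeness to the second profile was fixed by it in part.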

How the data were processed

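RNA from 12 C2C12 libraries (6 groups of 2) was read from tables that the authors deposited, 1 per library, with an expected count and an FPKM value per gene, per the file headers. The submitters' processing notes name HISAT, StringTie, Cufflinks, Bowtie, RSEM, DESeq2 and the mm10 build, without roles or versions, and whether counting used strand is not given in the sources used here. A gene missing from a table was taken as 0, and 93.3% to 93.7% of the deposited expected counts were whole. The labels call libraries A and B biological duplicates but do not say what a letter shares across groups. The p-values measure the spread between these libraries.

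Expected counts were rounded to whole numbers. The quasi-likelihood test of edgeR 4.0.16 was run in R 4.3.3 with TMM scaling, the default low-count filter, 1 model with 6 groups over all libraries, Benjamini-Hochberg adjustment over 12545 genes, and a call at an adjusted p under 0.05. The edgeR test returns no standard error. The SE given here is the absolute log2 fold change divided by the square root of the F statistic. CPM was taken with TMM-adjusted library totals. Members and lists were chosen with earlier results of these data known. All 10 members are named. The naming rule picked from each list up to 2 called genes per stage and direction with the largest change and a mean of at least 5 CPM. The text gives only some of the genes picked, and for some of them values at further stages. The statistics were tested on simulated data.

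The alternatives were size factors as in DESeq2, the Wald test of DESeq2 1.42.0, no low-count filter, a mean of at least 10 counts, limma (3.58.1) on log2(FPKM + 1) and log2(FPKM + 0.1) from the deposited FPKM values, only the libraries compared, the letter as a replicate block, and each library left out in turn. Leaving out all 4 GM libraries was added after seeing the data. Figures were drawn with matplotlib 3.10.9 in Python 3.11.15.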

Additional observations from a re-analysis of the deposited data

Results flagged for a closer look

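Effects of PFI-3 on list genes that differed between stages are all listed here as differences of log2 fold changes, each from edgeR's interaction contrast, adjusted over all genes, at an adjusted p under 0.05. Bach2, Gpx4, Txn1, Ephx1, Akr1b3 and Abcc4 lie outside the naming rule and were added after their values were seen. Groups of 2 are too small to screen single libraries. GM replicates spread wider, so the adjusted p of differences from GM may be too small. How these calls fare under the alternative fits is not given here. Some rest on few counts per library, among them Bach2 and Slc40a1 in GM with DMSO (9 to 17 and 14 to 35). Palb2 at 48 h with DMSO had 17 to 27.

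The members were selected on PFI-3 values, so their differences between stages are given as values and were not tested. Hmox1 moved up in both letters at 24 h and slightly down in both at 48 h, a difference of -0.53 (SE 0.43). The 48 h value of -0.085 was smaller than its SE of 0.306.

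Among the partners of NRF2, the effect at 48 h minus that in GM was 1.42 for Palb2, -1.52 for Maff and -1.87 for Bach2, and minus that at 24 h it was 1.40 for Palb2, -0.86 for Maff and -0.77 for Mafk. In the glutathione and thioredoxin lists, 48 h minus GM was 0.51 for Gpx1, 0.54 for Prdx4, -0.37 for Gpx4 and -0.31 for Txn1, and 48 h minus 24 h was 0.34 for Slc7a11, -1.48 for Txnip, -0.47 for Gpx4 and -0.34 for Txn1. For NADPH supply, 48 h minus GM was -0.36 for Pgd, -0.37 for Taldo1, 0.40 for Me1 and -0.52 for H6pd, and 48 h minus 24 h was 0.42 for Me1.

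For detoxification, 48 h minus GM was -1.02 for Gsta4, -0.53 for Akr1b8, 0.99 for Ephx1 and 0.82 for Abcc4, 24 h minus GM was 1.04 for Abcc4, and 48 h minus 24 h was -0.42 for Akr1b3. For haem and iron handling, 24 h minus GM was -1.31 for Blvrb and 0.78 for Ftl1, 48 h minus GM was -1.95 for Blvrb, 0.53 for Ftl1, -0.40 for Fth1 and -1.74 for Slc40a1, and 48 h minus 24 h was -0.80 for Fth1 and -1.51 for Slc40a1. Cat differed at each step, by -0.56 for 24 h minus GM, -0.98 for 48 h minus GM and -0.42 for 48 h minus 24 h, and Sod2 by -0.41 for 48 h minus GM. In the aryl hydrocarbon receptor list, 24 h minus GM was -1.14 for Ahr, and 48 h minus GM was -1.36 for Ahr, -0.76 for Tiparp and 0.71 for Cyp1b1.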

How the results depend on the processing

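Over 22 alternatives, 604 of the 640 recomputed vehicle-course values of the members kept their direction and side of the threshold, 30 lost the call and 6 gained it. Their PFI-3 values moved beyond the spread in 63 of 850 cases and reversed in 1, Hmox1 in GM, whose value of -0.037 ran from -0.815 to 0.467 as libraries were left out in turn. Named list genes lost their call in 169 of 1390 recomputed values. The cause of the changes below was not tested.

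Members called higher from GM to 48 h with DMSO numbered 1, and 0 under the DESeq2 Wald test, both limma fits and both fits of only the libraries compared (0 to 1 with a library left out). From 24 h to 48 h, 0 became 1 in both fits of only the libraries compared and without the GM libraries. For PFI-3, members called higher in GM went from 5 to 2 when only the libraries compared were fitted, next to 685 and 16 of all genes. With a library left out they ranged from 0 to 1 for lower in GM and from 4 to 8 for higher at 24 h.

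Fitting only the libraries compared took all genes called with PFI-3 in GM from 685 to 16 higher and from 771 to 16 lower. List genes called higher there went from 23 to 2 in that fit. Those lower in GM went from 7 to 2 and 2 by limma, 0 in that fit and 3 there with the replicate block, and ranged from 4 to 9 with a library left out. At 24 h the ranges were 18 to 31 higher and 2 to 11 lower, and at 48 h 16 to 28 higher and 8 to 23 lower. Those lower at 48 h went from 18 to 11 and 10 by limma, 30 when only the libraries compared were fitted, 31 there with the replicate block and 31 without GM libraries. In the same order, all genes lower went from 1756 to 1356, 1148, 2910, 3087 and 3003. On average over the stages, 19 list genes lower became 11 and 11 by limma, where all genes lower went from 2075 to 1536 and 1365.

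Same-letter DMSO and PFI-3 libraries deviated together with correlations of 0.504 in GM, 0.029 at 24 h and 0.047 at 48 h over 10656 genes, and the labels do not say what a letter shares. The replicate block over all libraries called 5, 7 and 7 members higher with PFI-3, as without it, and 24, 29 and 26 list genes higher. GM replicates spread wider, while the main fit takes 1 spread per gene over all stages, so SE and adjusted p in GM may be too small. With 2 libraries a group, small changes in GM are also limited most.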
